A study of Mus musculus and Homo sapiens with 10 samples.

Results

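The Krüppel-like factor genes Klf4, Klf2 and Klf5 of the mouse were examined for acetylation of histone H3 in embryonic stem cells (ESCs). The members are all islands, that is stretches of enriched chromatin called by the authors, that overlap 3 windows of the mm9 genome. These are chr4:55450000-55570000 for Klf4 with its distal enhancers, chr8:74800000-74880000 for Klf2 and chr14:99640000-99760000 for Klf5. They took in 85 of the 272566 islands in the 3 mouse lists, namely 27 of 92957 for H3K122ac, 16 of 57512 for H3K64ac and 42 of 122097 for H3K27ac. The series holds 10 libraries, 1 of them an input, of which 6 immunoprecipitated libraries are used here. All 6 came from undifferentiated 46c ESCs, a line carrying a Sox1-GFP reporter, at passages 25 to 28, grown without feeders in medium with serum and Lif. Chromatin was cut with MNase, and each of the antibodies against H3K122ac, H3K64ac and H3K27ac was used in 2 libraries, which the authors merged before calling islands. There is thus 1 list per mark and no replicate value, so no test between marks or loci was made. Every interval of a fold or of a ratio of folds below is an exact 95% binomial interval that covers counting error only. Shares of islands have Wilson intervals, which treat islands as independent.

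KLF proteins are zinc-finger transcription factors that bind CACCC and GC-rich elements. KLF2, KLF4 and KLF5 occupy many of the same sites in mouse ESCs and act redundantly to maintain self-renewal, and Klf4 is known as a reprogramming factor that responds to LIF signalling through STAT3. Distal enhancers are known to control Klf4 in ESCs, and they lie downstream of the gene. H3K27ac is a tail modification used to mark active promoters and enhancers. K122 and K64 lie in the globular domain of H3, where the histone touches DNA, and the study asks whether their acetylation marks regulatory elements, with or without H3K27ac.

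No annotation of mm9 was used here, so islands are given by position and are not assigned to promoters, introns or enhancers, and markers of ESC identity were not checked. In the RefSeq gene table of another build (GRCm38.p6), the nearest protein-coding genes are Rad23b and Actl7b for Klf4, Ap1m1 and Eps15l1 for Klf2, and Pibf1 and Klf12 for Klf5, the gene on the low-coordinate side first. RefSeq promoter sequences matched 2 of the 3 genes, Klf4 and Klf2. That of Klf4, the gene with the strongest H3K64ac domain below, is shown for the GC-rich elements it holds, of the kind that KLF proteins bind. It is the 250 bases before the RefSeq start, 5′ to 3′ on the minus strand, chr4:55532476-55532725 of GRCm38.p6, a position that cannot be set against the mm9 islands. Capitals mark every match to CCGCCC or CACCC on either strand.
Klf4: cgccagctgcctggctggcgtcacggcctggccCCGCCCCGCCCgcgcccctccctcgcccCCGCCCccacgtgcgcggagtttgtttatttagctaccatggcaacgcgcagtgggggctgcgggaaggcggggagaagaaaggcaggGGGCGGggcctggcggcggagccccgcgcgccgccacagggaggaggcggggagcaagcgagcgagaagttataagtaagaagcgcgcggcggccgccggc
The Klf4 promoter held 4 matches to CCGCCC and 0 to CACCC, and the Klf2 promoter held 2 and 1. No base belonged to both motifs, and a match describes the sequence only, not binding. Of 32851 mouse promoters of this length, 32.7% held CCGCCC and 52.0% held CACCC. GC content was 74% for Klf4 and 71.2% for Klf2, against a median of 52.4% over all promoters, and the sequences held 32 and 29 CpG dinucleotides, against a median of 6.

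In each window most of the reads in islands lay in a single broad domain. When overlapping islands of the 3 marks were joined, the 85 islands formed 26 regions, 11 at Klf4, 8 at Klf2 and 7 at Klf5. The region richest in H3K122ac reads spanned 26800 bp at Klf4, 34600 bp at Klf2 and 45400 bp at Klf5. These 3 regions held 66.8%, 71.1% and 73% of the H3K122ac reads in the islands of their locus. They held 84.9%, 89.7% and 73.3% of the H3K64ac reads, and 75.4%, 59.7% and 78.1% of the H3K27ac reads. These shares are not corrected for length. Their H3K122ac islands took 26800, 33400 and 42800 bp of the 49000, 54000 and 72400 bp that this mark covered in the windows. For H3K64ac it was 26800, 33800 and 43000 of 39000, 44800 and 80400 bp. For H3K27ac it was 20400, 23600 and 34400 of 28800, 38400 and 48000 bp. Each domain carried all 3 marks. It was called as 1 island by H3K64ac at every locus, as 1 or 2 islands by H3K122ac, and as 6 to 12 islands by H3K27ac, for which the authors' caller allowed a gap of 200 bp in place of 600 bp.

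**Figure D1:**
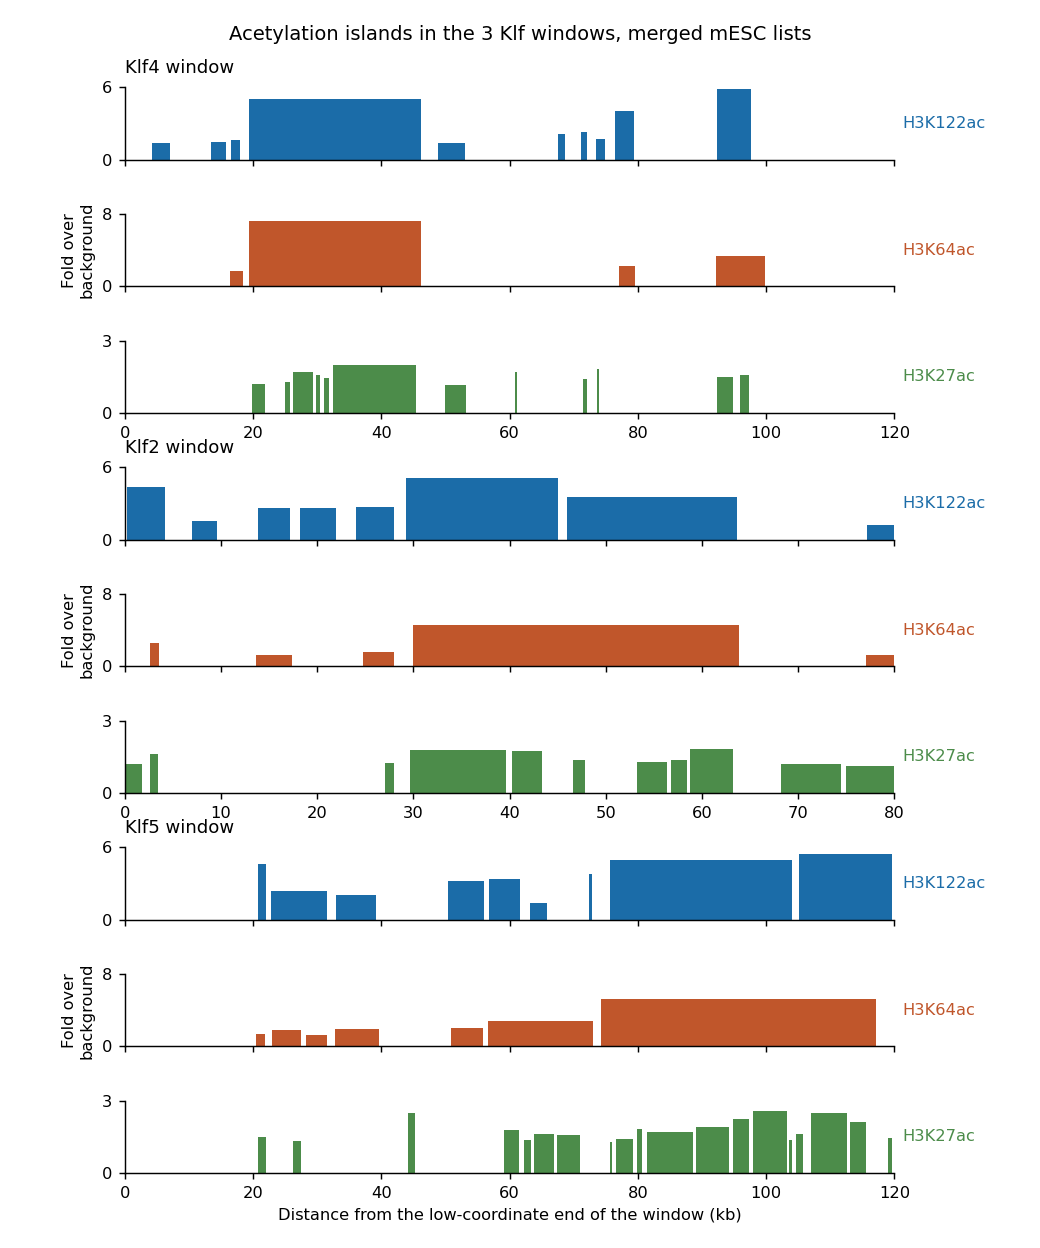
Islands of H3K122ac, H3K64ac and H3K27ac in the Klf4, Klf2 and Klf5 windows, plotted against distance from the low-coordinate end of the window in kb. Bar width is the island's extent and bar height the authors' fold over background, on an axis scaled for each mark; the H3K64ac bars reach 7.19 at Klf4, 4.63 at Klf2 and 5.20 at Klf5, each over a single long island.

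At Klf4, the domain chr4:55469401-55496200 was called with the same ends for H3K122ac and H3K64ac. It lay on the low-coordinate side of the window. Klf4 is on the minus strand in the RefSeq table of the other build, so low coordinates are its downstream direction. Without an mm9 annotation the domain was not placed against the gene or its known enhancers. H3K122ac gave 7080 reads over 1536 background reads there, a fold of 5.05 (4.78 to 5.34) as the authors' caller computed it, and H3K64ac gave 11948 reads over the same 1536, a fold of 7.19 (6.82 to 7.59). Only 46 of the 92957 H3K122ac islands were longer, and only 164 of the 57512 H3K64ac islands. The H3K64ac fold was above 95% of its list, the highest place of any H3K64ac island in the 3 windows, and the H3K122ac fold was above 80.7% of its own. H3K27ac covered 76.1% of the domain in 6 islands, whose pooled fold was 1.78 (1.68 to 1.90). The longest of them, chr4:55482401-55495400, had 3380 reads over 772, a fold of 2.00 (1.85 to 2.17) that was above 82.3% of the H3K27ac list. The next in fold and length, chr4:55476201-55479400, had a fold of 1.69 (1.44 to 1.99), while the island at the low-coordinate end, chr4:55469801-55471800, had 1.19 (0.98 to 1.44).

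On the high-coordinate side of the Klf4 window, a second region with all 3 marks spanned chr4:55542201-55549800. Its H3K122ac island, chr4:55542401-55547600, had 1432 reads over 268, and its fold of 5.85 (5.13 to 6.69) was the highest H3K122ac value in any of the 3 windows. The interval overlapped that of the long domain, so a difference in H3K122ac between these places was not shown. H3K64ac had 1517 reads over 412 background reads in this region, a fold of 3.4 (3.05 to 3.8), below its value in the domain, and these intervals were apart. H3K27ac was split there into chr4:55542401-55544800, with a fold of 1.5 (1.24 to 1.82), and chr4:55546001-55547400, with 1.57 (1.25 to 1.98).

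Another Klf4 region, chr4:55526401-55529600, had both globular-domain marks and no H3K27ac island. H3K122ac had 804 reads over 219 there, a fold of 4.02 (3.46 to 4.69) that was above 70.3% of its list. H3K64ac had 432 reads over 174, a fold of 2.29 (1.92 to 2.75). The remaining 7 H3K122ac islands of the window were weak, with folds of 1.35 to 2.27. Of these, 3 met H3K27ac alone, 1 met H3K64ac alone and 3 met neither. H3K27ac without either other mark was limited to chr4:55510801-55511200, a 400 bp island with 93 reads over 25 and a fold of 1.70 (1.08 to 2.76). The high-coordinate end of the window held no H3K122ac island over its last 22400 bp and no H3K27ac island over its last 22600 bp.

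At Klf2, the main region chr8:74829201-74863800 was divided by a gap in H3K122ac. The low-coordinate island, chr8:74829201-74845000, had 4402 reads over 941 and a fold of 5.12 (4.77 to 5.50). Its neighbour, chr8:74846001-74863600, was longer but weaker, with 3965 reads over 1229 and a fold of 3.53 (3.31 to 3.77). The intervals of the pair did not overlap, and their lengths of 15800 and 17600 bp were exceeded by 442 and 291 islands of the list. H3K64ac ran across the gap as chr8:74830001-74863800, with 11047 reads over 2206 and a fold of 4.63 (4.42 to 4.85), and 73 of the H3K64ac islands were longer. H3K27ac covered 68.6% of that island. On the low-coordinate side chr8:74829601-74839600 had a fold of 1.78 (1.63 to 1.95) and chr8:74840201-74843400 one of 1.76 (1.52 to 2.05). The last island, chr8:74858801-74863200, had a like fold of 1.83 (1.61 to 2.08). The 3 islands between them were weaker, at 1.31 to 1.38.

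Outside its main region the Klf2 window held several H3K122ac islands of middling fold. The region chr8:74800001-74804200, at the low-coordinate edge, carried all 3 marks with folds of 4.39 (3.8 to 5.08) for H3K122ac, 2.59 (2.00 to 3.38) for H3K64ac and 1.33 (1.14 to 1.57) for H3K27ac. The island chr8:74818201-74822000 carried H3K122ac alone, with 734 reads over 307 and a fold of 2.62 (2.29 to 3.0). H3K122ac at chr8:74813801-74817200 had a similar fold of 2.66 (2.26 to 3.14) and met a weak H3K64ac island with 1.27 (1.06 to 1.51), but no H3K27ac island. The window had no H3K27ac island over the 23600 bp between chr8:74803401 and chr8:74827000. H3K27ac without the other marks was found on the high-coordinate side, where the other build places the neighbour Eps15l1. There chr8:74868201-74874400 carried H3K27ac alone over 6200 bp, with 1228 reads over 470 and a low fold of 1.20 (1.07 to 1.33). Next to it chr8:74875001-74884400, the second longest H3K27ac island of the window, crossed the window edge with a fold of 1.14 (1.05 to 1.24), above only 1.59% of its list. It met 1 H3K122ac island and 1 H3K64ac island, which covered 36.2% and 38.3% of it and also had low folds, of 1.20 and 1.22.

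At Klf5, the main region chr14:99714201-99759600 filled the high-coordinate part of the window. H3K64ac formed a single island of 43000 bp, chr14:99714201-99757200, with 12696 reads over 2254, a fold of 5.20 (4.98 to 5.45) and only 28 longer islands in its list. H3K122ac formed chr14:99715601-99744000, with 7282 reads over 1623 and a fold of 4.91 (4.66 to 5.19), and chr14:99745201-99759600, with 2861 reads over 573 and a fold of 5.47 (5.0 to 5.99). The intervals of these 2 islands overlapped. The first was 28400 bp long, and 37 islands of the list were longer. H3K27ac folds reached higher values here than in the other windows. The highest folds in this region were 2.56 (2.25 to 2.92) at chr14:99738001-99743200, from 1533 reads over 274, and 2.48 (2.16 to 2.84) at chr14:99747001-99752600, from 1374 reads over 254. The longest H3K27ac island of the window, chr14:99721401-99728600, had a fold of 1.71 (1.56 to 1.88).

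Of the 7 Klf5 regions, 4 carried islands of all 3 marks, 2 the globular-domain marks without an H3K27ac island and 1 H3K27ac alone. The region chr14:99690401-99696000 had an H3K122ac fold of 3.24 (2.84 to 3.72) and an H3K64ac fold of 2.01 (1.74 to 2.33), with no H3K27ac island called. Next to it chr14:99696601-99713000 was a single H3K64ac island of 16400 bp with 2328 reads over 774 and a fold of 2.78 (2.56 to 3.02). It held 3 H3K122ac islands, with folds of 1.42 to 3.78, and 4 H3K27ac islands, with folds of 1.37 to 1.78. The H3K122ac island chr14:99662801-99671600 was broad and had a fold of 2.38 (2.14 to 2.65), and H3K27ac covered 13.6% of it. H3K27ac alone marked chr14:99684201-99685200, with 148 reads over 27 background reads. Its fold of 2.51 (1.66 to 3.93) was above 91.9% of the list, but its place fell to 69.4% when islands were ranked by reads in excess of the scaled background per kb. Background there was the lowest of any member island, at 27 reads per kb.

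The order of the loci differed by mark when reads were pooled over the islands of a locus. For H3K64ac the pooled fold was 5.87 (5.62 to 6.14) at Klf4, 3.79 (3.67 to 3.92) at Klf5 and 3.77 (3.62 to 3.92) at Klf2, so Klf4 stood above the others, whose intervals overlapped. For H3K122ac it was 4.07 (3.93 to 4.22) at Klf5, 3.95 (3.79 to 4.11) at Klf4 and 3.53 (3.4 to 3.66) at Klf2, and the intervals of Klf5 and Klf4 overlapped. For H3K27ac it was 1.88 (1.81 to 1.97) at Klf5, 1.67 (1.59 to 1.76) at Klf4 and 1.42 (1.37 to 1.48) at Klf2, with no overlap. The same pooled fold over a whole list was 3.36 for H3K122ac, 2.93 for H3K64ac and 1.5 for H3K27ac, so H3K27ac at Klf2 was below its list. That direction rested on chr8:74875001-74884400, the island that crosses the window edge: with islands wholly inside the window the value at Klf2 was 1.52, above the list. Klf4 had the highest H3K64ac value, and Klf5 the highest H3K27ac value, also with a q-value of at most 1e-10 and by the median of the islands' own folds. The H3K122ac order did not hold. At that q-value Klf4 was highest, at 4.88, and by the median of folds Klf4 was lowest, at 1.91, because 7 of its 10 islands were weak.

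**Figure D2:**
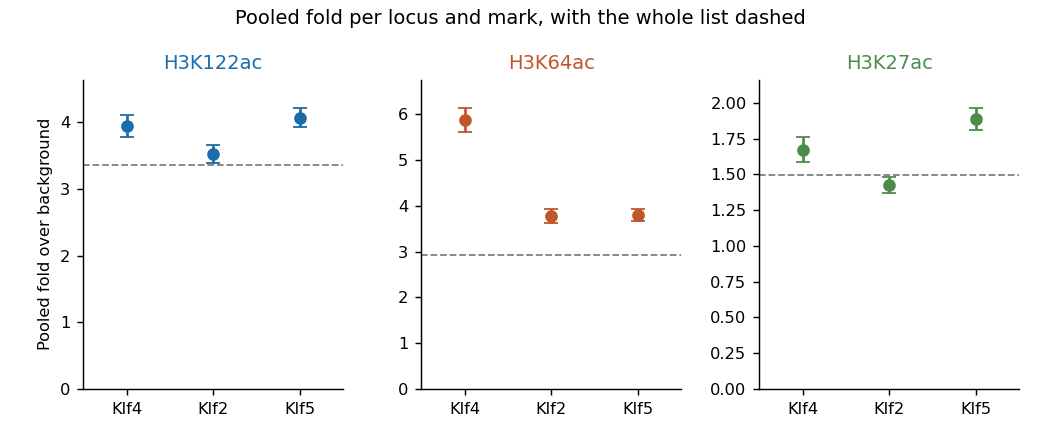
Pooled fold over background at Klf4, Klf2 and Klf5 for each mark, with exact 95% intervals that cover counting error only and the pooled fold of the whole list as a dashed line. Klf4 stands at 5.87 for H3K64ac, above 3.77 and 3.79 at the other loci, whereas its H3K122ac value of 3.95 lies between theirs.

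The balance of the globular-domain marks was followed over the 15 regions that carried both. The ratio of the H3K64ac fold to the H3K122ac fold was 1.42 in the Klf4 domain, 1.1 in the Klf2 main region and 1.03 in the Klf5 main region, which were the highest ratios of their loci. In the other 12 regions it ran from 0.299 to 1.04. The lowest value belonged to chr14:99660401-99662000, where the H3K122ac fold was 4.61 (3.63 to 5.91) and the H3K64ac fold 1.38 (1.06 to 1.81). The ratio was below 1 in 9 regions and above 1 in 6. The H3K64ac interval lay wholly below that of H3K122ac in 8 regions and wholly above it in 1, the Klf4 domain. A lower H3K64ac fold is usual under the authors' scaling, since over islands with identical ends in both lists H3K64ac was the higher in only 19.8%. Except in the Klf4 domain the islands of the 2 marks did not cover the same bases, so part of a ratio can follow from where the islands ended.

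Over the identical ends of the Klf4 domain the background count cancels, and the ratio of 1.42 has an interval of 1.38 to 1.47. Among all 5372 pairs of H3K122ac and H3K64ac islands with identical ends in the genome, the median ratio was 0.755, and 97 pairs had a higher ratio than Klf4. The Klf4 domain therefore ranked above 98.2% of such pairs. The ratio depends on the authors' library scaling of each list, but the rank among pairs does not.

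**Figure D3:**
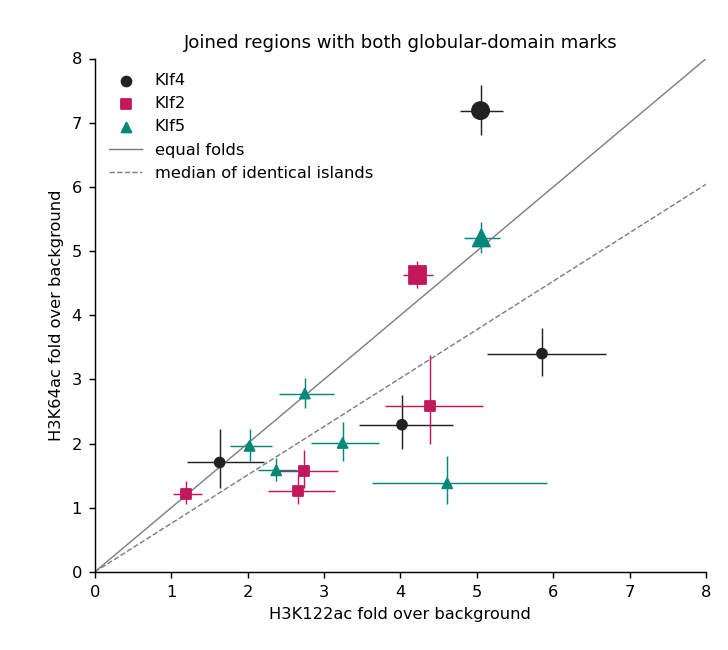
H3K64ac fold against H3K122ac fold for the 15 joined regions of the Klf4, Klf2 and Klf5 windows with both marks, with exact 95% intervals. Large symbols are the region of each locus with the most H3K122ac reads; they lie on or above the line of equal folds, with the Klf4 domain at 5.05 and 7.19, and the dashed line is the median ratio of 0.755 over identical islands.

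Islands that met neither other mark were 3 of 42 for H3K27ac, 5 of 27 for H3K122ac and 0 of 16 for H3K64ac. The shares of the whole lists were 40.1%, 28.3% and 2.77%. Of the 42 H3K27ac islands, 38 (90.5%; Wilson 95% interval 77.9 to 96.2%) met H3K122ac, against 55% of the whole list, and 34 (81.0%; 66.7 to 90%) met H3K64ac, against 50.2%. Both marks were met by 33, against 45.3% of the list, and 3 met neither, against 40.1%. Those 3 were the islands named above, 1 in each window. The intervals treat islands as independent, but 6 to 12 H3K27ac islands were cut from each main region. With H3K27ac islands joined across 600 bp, 22 of 24 (91.7%) met H3K122ac and 17 of 24 (70.8%) met H3K64ac. The shares of the whole list were not recomputed for joined islands. All 16 H3K64ac islands met H3K122ac, against 93.5% of the list, and 10 met H3K27ac (62.5%; 38.6 to 81.5%), against 72.5%.

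H3K122ac islands met H3K27ac in 16 of 27 cases (59.3%; 40.7 to 75.5%), near the 55.6% of the whole list, and met H3K64ac in 19 (70.4%; 51.5 to 84.1%), against 60.6%. All 9 H3K122ac islands at Klf5 met H3K64ac, against 6 of 8 at Klf2 and 4 of 10 at Klf4. The 13 islands with both other marks, a class that took 44.5% of the list, had a median H3K122ac fold of 4.39, against 3.69 in that class of the list. The 6 with H3K64ac alone, a class of 16.1%, had 2.95 against 2.87. The 3 with H3K27ac alone, a class of 11.1%, had 1.68 against 2.21, and the 5 with neither, a class of 28.3%, had 1.55 against 2.10. The order of the 4 classes was thus that of the whole list. Neighbouring islands of a domain are not independent, and long islands meet more islands of another list. By base pairs, 82.9% of H3K27ac island length in the windows lay inside H3K122ac islands and 82.8% inside H3K64ac islands, against 53.5% and 53.7% over the whole H3K27ac list. In the opposite direction 56.4% of H3K122ac island length lay inside H3K27ac islands, against 44.2% of the list.

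**Figure D4:**
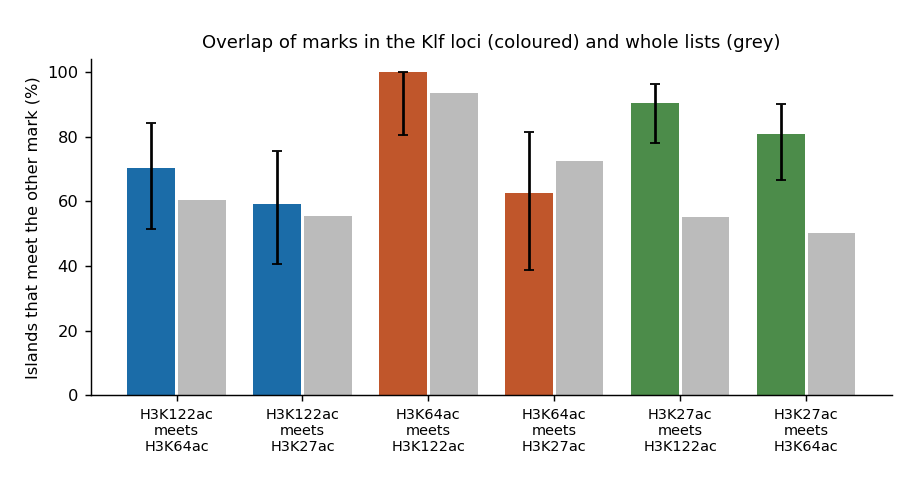
Share of islands of one mark that meet another mark by at least 1 bp, for the islands of the Klf4, Klf2 and Klf5 windows (coloured) and for the whole list (grey). Bars show Wilson 95% intervals, which treat islands as independent. H3K27ac islands met H3K122ac in 90.5% and H3K64ac in 81.0% of cases, against 55% and 50.2% of the list, while H3K122ac met H3K27ac in 59.3%, near the 55.6% of its list.

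The member islands stood out by length more than by fold. A length of 10000 bp or more was reached by 5 of 27 H3K122ac islands, against 2.01% of the list, by 4 of 16 H3K64ac islands, against 4.81%, and by 2 of 42 H3K27ac islands, against 0.454%. These 5 H3K122ac islands all lay in the 3 main regions, 2 of them at Klf2 and 2 at Klf5, so they are not separate domains. A fold of 3 or more was found in 12 of 27 H3K122ac islands, against 46.3% of the list, and in 4 of 16 H3K64ac islands, against 36.2%. No H3K27ac island reached it, 0 of 42, which allows a share of up to 7.14%, against 4.44%. That limit treats islands as independent, although many were cut from the same main region, so the share allowed can be larger. Among the highest 10% of folds of their own lists were 0 H3K122ac islands, 1 H3K64ac island, the Klf4 domain, and 3 H3K27ac islands, all at Klf5. The ranking rule mattered here. By reads in excess of the scaled background per kb, the longest H3K64ac islands were above 99.5% (Klf4), 95.5% (Klf2) and 94.0% (Klf5) of their list. Of the 3 H3K27ac islands, chr14:99684201-99685200 then fell to 69.4%. By fold, the median member was above 46.1% of the H3K122ac list, 35.7% of the H3K64ac list and 58.9% of the H3K27ac list. Each locus thus combined 1 long joined region of fairly high fold with a larger number of shorter regions. Not all of those were weak or short. The H3K122ac island chr4:55542401-55547600 had the highest member fold of that mark, 5.85, and the H3K64ac island chr14:99696601-99713000 spanned 16400 bp.

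**Figure D5:**
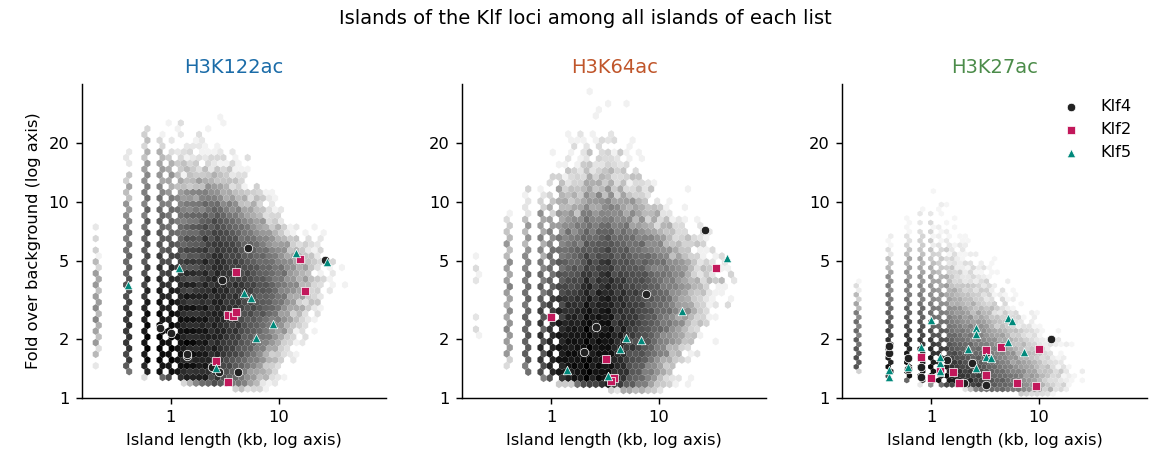
Fold over background against island length, both on log axes, for all islands with at least 10 background reads in each list (grey, darker where more islands lie) and for the islands of the Klf4, Klf2 and Klf5 windows (symbols). The longest members, of 26800, 33800 and 43000 bp for H3K64ac, lie at the right edge of the cloud, while most other members lie inside it.

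Background counts of the member islands ran from 22 to 2254 reads, and their median per kb was 59 for H3K122ac, 56.7 for H3K64ac and 63.1 for H3K27ac, beside list medians of 61.9, 58.3 and 60. Depth inside the islands of each whole list was 44320255, 38692934 and 40473895 reads. For 10 of the 42 H3K27ac islands the interval of the fold reached 1, although the authors' q-value was at most 0.00994, whereas it did so for 0 of the 27 H3K122ac and 0 of the 16 H3K64ac islands. The interval counts the error of the background reads. Reads carried no molecular identifiers in the sources used here, and the spread between the 2 merged libraries cannot be seen.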

How the data were processed

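Merged island lists of 46c mouse ESCs for H3K122ac, H3K64ac and H3K27ac were used, 1 per mark and 2 libraries each, grouped by title. The submitters' processing notes name Bowtie 0.12.8, HOMER 4.3, SICER 1.1 and mm9, without roles. Per the labels of the lists, islands were built from windows of 200 bp at a false discovery rate of 0.01, bridging gaps of 200 bp (H3K27ac) or 600 bp (H3K122ac and H3K64ac). The deposited values are whole-number read counts of the ChIP and of a background library, not normalized, and a q-value by the authors. The fold they deposited is a ratio, ChIP over background reads, scaled by 1 library factor per list, recomputed as 0.913, 1.08 and 2.19 for H3K122ac, H3K64ac and H3K27ac. Wherever islands of a pair of lists had the same ends (5372, 4091 and 1922 cases), their background counts were the same, so the lists shared a background library, which no source used here names. Folds were compared within a list, and between lists only as ratios and places in the list.

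Islands overlapping a window by at least 1 bp were members. Pooled folds sum both counts over islands, with exact Clopper-Pearson 95% intervals, and shares have Wilson intervals. The upper limit for 0 of 42 islands is 3 counts over 42 and treats islands as independent. Named islands were, per window and mark, the 2 of highest fold with at least 100 ChIP reads and the 2 longest, plus the 3 joined regions with most H3K122ac reads and the longest with H3K27ac alone. Others that the text names were chosen after their values were seen. The members, lists and windows were chosen with earlier results of these data known. Motifs were searched in RefSeq promoters of GRCm38.p6. The start-site lists of KLF family genes and cell markers were not scored, as no mm9 annotation was used. The code, run in Python 3.11.15 with scipy 1.17.1, was tested on simulated lists. Alternatives were other member, overlap, threshold, gap and ranking rules.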

Additional observations from a re-analysis of the deposited data

How the results depend on the processing

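The 36 results were recomputed under other settings, giving 101 values. In 64 of them counts changed by no more than 1.5 times, folds and shares stayed inside their intervals, and places in the list moved by less than 1 SD over the member islands. That SD was 29.5, 31.2 and 27.6 percentage points for H3K122ac, H3K64ac and H3K27ac, a margin that few moves would exceed. Some of the 64 could not change. No member had fewer than 10 background reads, which fixed the pooled folds under that setting. Islands of Klf4 and Klf5 did not cross a window edge, which fixed their values for islands wholly inside. The 37 values that moved are given here. At a q-value of at most 1e-10, islands fell from 10 to 5 for Klf4 H3K122ac, 12 to 4 for Klf4 H3K27ac, 5 to 3 for Klf2 H3K64ac, 11 to 5 for Klf2 H3K27ac and 19 to 12 for Klf5 H3K27ac. The covered share of the window became 30.7% and 16.7% for Klf4 H3K122ac and H3K27ac. It became 60.7%, 47.5% and 27% for Klf2 H3K122ac, H3K64ac and H3K27ac, and 63.0% and 34.8% for Klf5 H3K64ac and H3K27ac. Pooled folds became 4.88 and 1.86 for Klf4 H3K122ac and H3K27ac, 3.86, 4.34 and 1.69 for the Klf2 marks in the same order, and 3.97 for Klf5 H3K64ac. H3K27ac islands then met H3K64ac in 95.2% of cases, 20 of 21. With islands wholly inside the window, the Klf2 folds were 3.75, 4.09 and 1.52, which puts H3K27ac above the 1.5 of its whole list in place of below it. The median of the islands' own folds, for H3K122ac, H3K64ac and H3K27ac, was 1.91, 2.85 and 1.53 at Klf4, 2.70, 1.57 and 1.36 at Klf2, and 3.42, 1.96 and 1.62 at Klf5. With H3K27ac islands joined across 600 bp, their number was 7 at Klf2 and 9 at Klf5, and they covered 44.2% of the Klf5 window. With a fold of 3 or more in both lists, H3K122ac met H3K64ac in 50% of 12 islands. H3K27ac was then met by 0 of 12 H3K122ac islands and 0 of 4 H3K64ac islands. No H3K27ac member reached that fold, so these 2 values were fixed in advance and say nothing about overlap. Fewer islands entered each stricter setting; beyond that the cause was not tested. No paired analysis was possible because the authors merged the replicates of each mark before calling islands, and for the same reason no replicate could be left out. Low background counts limit the short islands most.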

Other observations

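Islands lay close to several of the window edges. At Klf2, 1 island of each mark crossed the high-coordinate edge, and the next H3K122ac and H3K64ac islands before the low-coordinate edge lay 1399 bp away, with folds of 4.17 and 3.47. On the other side the next islands of these marks were 64400 and 63200 bp away. At Klf5 the nearest H3K122ac island on the high-coordinate side lay 3400 bp beyond the window with a fold of 4.35. On the low-coordinate side of Klf5 the nearest H3K27ac island, 28199 bp beyond the edge, had a fold of 5.08, which is higher than any H3K27ac island inside the 3 windows. At Klf4 the nearest H3K64ac island before the window, 5999 bp away, had a fold of 5.31, and none was called within 93600 bp after the window.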
